A study of Mus musculus with 9 samples.

Results

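The genes described here are complement components and regulators, clotting factors, anticoagulants and kinin and fibrinolysis genes. They were chosen by name, as 43 gene symbols, with earlier results of these data known. Comparisons of the members with all genes are therefore a description and not a test. Of the 43 symbols, 42 were found among the 33211 genes of the table. All 42 passed the filter on low counts, as did 14220 genes in all. They comprise 23 complement genes and 19 coagulation and fibrinolysis genes. The missing symbol is Protz, and a gene listed as Proz (ENSMUSG00000031445) was looked at after its values were known and is described apart from the members.

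RNA was sequenced from the liver of young adult male wild-type mice of the inbred strain C57BL/6, written C57BL6/J in the study's methods. Every mouse received a high-fat diet (HFD), and the groups were fed in parallel with free access to it. They differed in where the opened diet had been kept, which was a freezer for HFDfre (n = 5 libraries) and a fridge for HFDfri (n = 4 libraries). The comparison asks how the storage of the diet bears on the expression of genes in the liver, and no group on a standard diet was analysed here, so a difference gives HFDfri relative to HFDfre and not the effect of the fat itself. The labels give each library a sample of its own without stating how the animals were sampled, and p-values measure the spread between these libraries.

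Complement and coagulation are cascades of plasma proteins in which proteases, most of them kept as inactive precursors, are activated in turn by cleavage, together with cofactors, pore-forming proteins and inhibitors. The classical, lectin and alternative pathways of complement each build an enzyme that cleaves C3, and then C5, after which C5b, C6, C7, C8 and C9 assemble the membrane attack complex that pierces a target membrane. In coagulation, the intrinsic and extrinsic routes meet at factor X and thrombin, which turns fibrinogen into fibrin, while plasmin later dissolves the clot. Hepatocytes make most of these proteins, and several of them are acute-phase proteins, which the liver makes in greater amounts during inflammation.

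Library totals ran from 58614917 to 69353439 counts. Levels are given as CPM, a gene's count scaled by the total of its library, after TMM scaling, which sets the bulk of genes at the same level in every library. Among the members, F8 had as few as 95 counts in a library, Masp1 had 388 or more and every other member 473 or more. The 6 hepatocyte markers summed to between 85372 and 91871 CPM in HFDfre and to between 75148 and 101732 CPM in HFDfri. None of the 6 passed the adjusted threshold in edgeR, while DESeq2 called Ttr lower (log2 fold change -0.43, adjusted p = 0.0158) and Cps1 higher (0.70, DESeq2 adjusted p = 0.00251). Of the marker lists of other cell types, the lymphocyte and the platelet genes had sums that did not overlap, at 1.94 to 3.39 CPM in HFDfre and 0.774 to 1.89 in HFDfri for 6 lymphocyte genes and at 3.12 to 3.75 and 1.86 to 2.81 CPM for 4 platelet genes. No gene of either list passed in edgeR, and DESeq2 called Ppbp of the platelet list lower. Alas2 of the erythroid list rose (log2 fold change 0.40, edgeR adjusted p = 0.0486), while the sum of the 5 erythroid genes overlapped, at 447 to 614 CPM and 273 to 889 CPM. The part of these cells in the results was not tested. The mitochondrial share of counts was 15.4% ± 3.04 for HFDfre against 10.6% ± 2.07 for HFDfri (mean ± SD, exact two-sided permutation p = 0.0397), with ranges that overlapped. The share of the ribosomal locus Gm26924 was 5.32% ± 4.23 and 2.14% ± 2.14 (exact two-sided permutation p = 0.214). The mitochondrial share moved with the group, and results with it as a covariate are given below. In whole tissue, fewer cells of a type and less RNA per cell cannot be told apart.

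Most members had higher mean levels in HFDfri. The log2 fold change, given throughout as HFDfri minus HFDfre, was above 0 for 33 of the 42 members and below 0 for 9, with a median of 0.16, while it was above 0 for 49.1% of all tested genes, whose median was -0.01. In the quasi-likelihood test of edgeR, with p-values adjusted over all 14220 genes by the Benjamini-Hochberg method, 4 members rose at an adjusted p under 0.05 and 0 fell, which is 9.52% of the members. Of all tested genes, 0.499% rose and 0.556% fell by that rule, 1.05% in either direction. At an unadjusted p under 0.05, 20 members were higher and 2 were lower, against 11.4% and 9.79% of all tested genes. DESeq2, run on the same counts, called 11 members higher and 0 lower at its adjusted p under 0.05, against 3.43% of all tested genes called higher.

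The separation of the individual libraries was counted as well. For 11 members every HFDfri library lay above every HFDfre library, and for 1 member, Mbl2, every HFDfri library lay below. Of all tested genes, 4.02% were separated upwards and 3.66% downwards in this way. The members' summed share of a library's counts was 1.98% ± 0.139 for HFDfre and 2.33% ± 0.0768 for HFDfri (mean ± SD), with ranges of 1.83% to 2.15% and 2.22% to 2.40%. Mitochondrial and ribosomal counts are part of that total. Of the counts outside them, a total chosen after the data were seen, the members took 2.34% to 2.60% in HFDfre and 2.51% to 2.75% in HFDfri, and the groups overlapped. The 23 complement genes had a median log2 fold change of 0.23, with 19 of them above 0, and the 19 coagulation and fibrinolysis genes had a median of 0.10, with 14 above 0. All 4 members that passed the adjusted threshold belong to the terminal complement. Without its 6 genes the other 36 members had a median of 0.14, with 28 above 0 and none past the adjusted threshold in edgeR. At an unadjusted p under 0.05, 15 of them were higher and 2 lower, against 11.4% and 9.79% of all tested genes. DESeq2 called 6 of them higher and 0 lower, against 3.43% of all tested genes called higher.

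With the mitochondrial share as a covariate, the members' median log2 fold change was 0.17, again with 33 above 0. In that fit 5 genes passed the adjusted threshold in edgeR, 1 of them a member, against 150 genes and 4 members without the covariate. An unadjusted p under 0.05 was found for 10 members. The share of all genes at that p was not counted in this fit, and the shares given above are from the fit without the covariate. The fold changes of 22 members stayed within 1.5 times of their values without the covariate, those of 5 were larger by more than that, and those of 15 were smaller by more than that or turned in sign. The same split was not made over all genes. Among the 15 were Masp1, Clu, F13b and F7, whose values are given with these genes, and C2 (0.15 with the covariate), Cfp (-0.03), C8g (-0.04), Proc (-0.02) and Serpind1 (0.11).

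**Figure D1:**
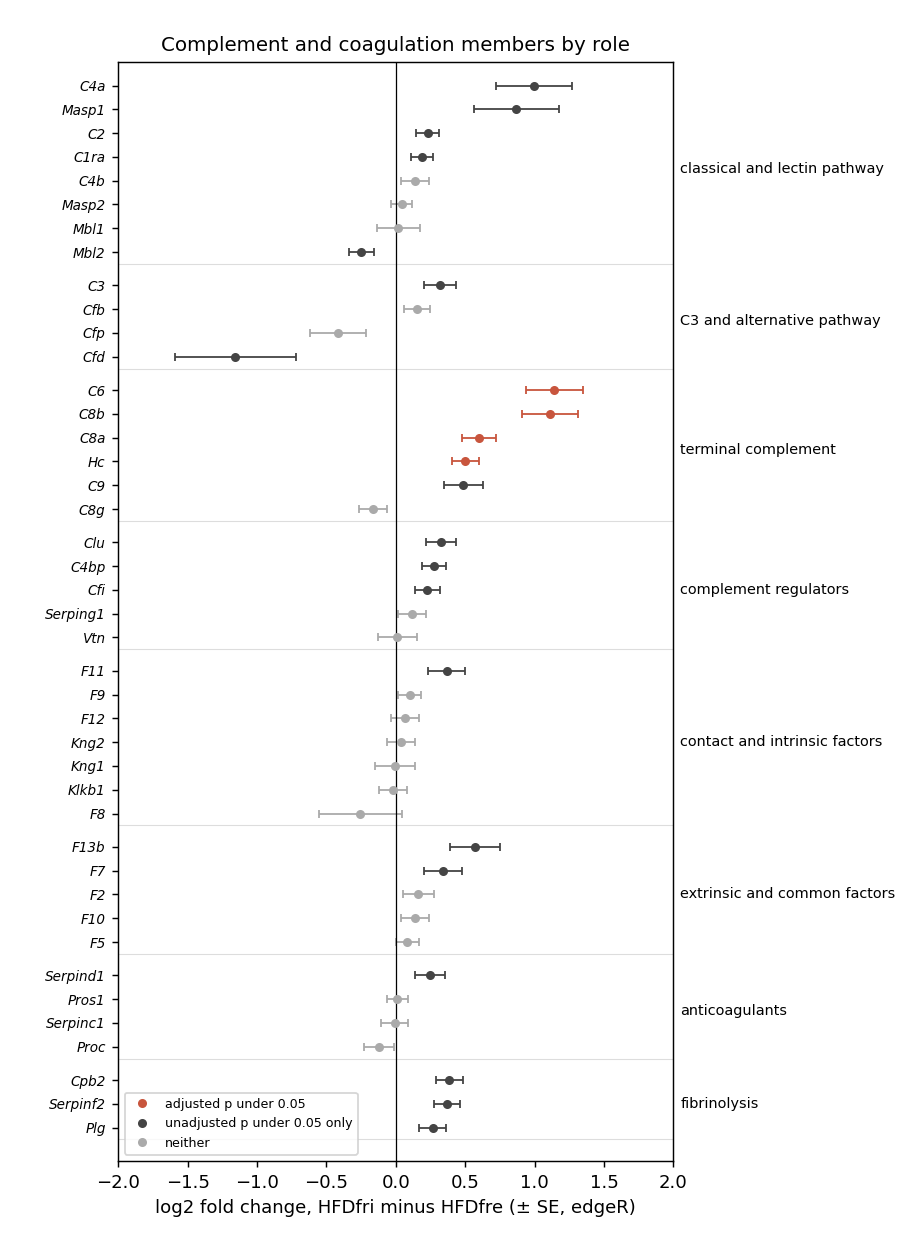
The log2 fold change (HFDfri minus HFDfre, x axis) of each of the 42 members, grouped by role on the y axis, with bars for ± SE from edgeR. The 4 members in red, C6, C8b, C8a and Hc, passed an adjusted p of 0.05 and lie between 0.50 and 1.14, while Cfd, the lowest point at -1.16, has the widest bar.

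The terminal complement genes encode the proteins of the membrane attack complex. Hc encodes C5, whose fragment C5b starts the complex. C6 binds C5b, the 3 chains of C8 (C8a, C8b and C8g) anchor it in the membrane, and C9 polymerises into the pore. Of these 6 genes, 4 rose in HFDfri, C9 was higher in every HFDfri library without passing the adjusted threshold, and C8g was not higher. Of all tested genes, 0.499% rose at the adjusted threshold in edgeR. The median log2 fold change of the 6 was 0.55.

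C6 and C8b had the highest log2 fold changes of the members in edgeR. C6 was above C8b there by less than the standard error of either, and C8b was above C6 under 5 of 19 alternatives. C6 was measured at 125, 111, 107, 68.0 and 99.4 CPM in HFDfre libraries 1 to 5 and at 333, 163, 206 and 201 CPM in HFDfri libraries 1 to 4. The highest HFDfre library lay below the lowest HFDfri library, and HFDfri 1 stood well above the other 3 of its group. C6 (ENSMUSG00000022181, chr15:4727175-4814967, plus strand, GRCm38) rose 2.21-fold, 1.14 ± 0.21 (SE) on the log2 scale, at an edgeR adjusted p of 0.0354.

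The levels of C8b were 168, 155, 114, 82.1 and 133 CPM in HFDfre and 326, 203, 334 and 260.4 CPM in HFDfri, so that the groups did not overlap and HFDfre 4 was the lowest library. C8b (ENSMUSG00000029656, chr4:104766317-104804548, plus strand) rose 2.16-fold, a log2 fold change of 1.11 ± 0.20 (SE), at an edgeR adjusted p of 0.0354. The neighbouring C8a (ENSMUSG00000035031, chr4:104815679-104876398, minus strand), which encodes the alpha chain, lies 11.1 kb from C8b and is read from the opposite strand. C8a stood at 409, 409.8, 363, 308 and 433 CPM in HFDfre and at 697, 535, 564 and 535 CPM in HFDfri. It rose 1.51-fold, a log2 fold change of 0.60 ± 0.12 (SE), at an edgeR adjusted p of 0.0467, again with no overlap between the groups.

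Hc was the most even of the 4 within its groups. Its levels were 357, 407, 367, 345 and 373 CPM in HFDfre and 598, 494, 523 and 475 CPM in HFDfri. Hc (ENSMUSG00000026874, chr2:34983331-35061438, minus strand) rose 1.41-fold, a log2 fold change of 0.50 ± 0.10 (SE), at an edgeR adjusted p of 0.0385. In C9 the values were 399, 343, 432, 278 and 435 CPM in HFDfre and 621, 513, 492 and 489 CPM in HFDfri. C9 had a log2 fold change of 0.49 ± 0.14 (SE) and missed the threshold in edgeR, at an adjusted p of 0.0981, while DESeq2 gave an adjusted p of 0.0204. With the mitochondrial covariate C9 was at 0.83 on the log2 scale (edgeR adjusted p = 0.0696).

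C8g, which encodes the small gamma chain that is bound to the alpha chain, was lower on average in HFDfri and did not pass the test. It was at 405, 317, 366, 342 and 371 CPM in HFDfre and at 359, 307, 289.9 and 332 CPM in HFDfri, and the groups overlapped. C8g had a log2 fold change of -0.16 ± 0.10 (SE), at an edgeR adjusted p of 0.39. Within a library, the ratio of C8a to C8g in CPM ran from 0.901 to 1.29 in HFDfre and from 1.61 to 1.94 in HFDfri, and that of C8b to C8g from 0.240 to 0.490 and from 0.661 to 1.15. Neither ratio overlapped between the groups, whereas the ratio of C8b to C8a did, at 0.266 to 0.411 in HFDfre and 0.380 to 0.592 in HFDfri. These ratios were formed after the levels were seen and were not tested. C8g overlaps Fbxw5 on the opposite strand, and whether counting used the strand is not stated. C7, which completes the complex and is no member, was at or near 0 in these livers, with at most 13 counts in any library.

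**Figure D2:**
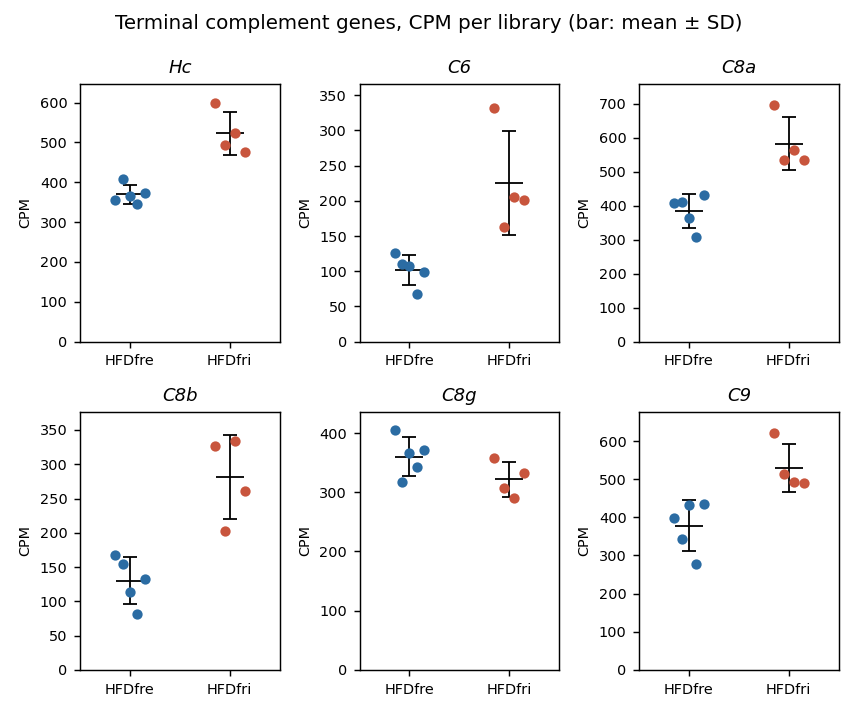
CPM (y axis, from 0) of the 6 terminal complement genes in each HFDfre (blue, n = 5) and HFDfri (red, n = 4) library, with bars for mean ± SD. The groups are apart in Hc, C6, C8a, C8b and C9, with C6 at 102 ± 21.3 against 226 ± 73.9 CPM, and overlap in C8g, at 360.4 ± 33.2 against 322 ± 29.9 CPM.

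The 4 calls lie close to the threshold and depend on the libraries. Under 19 alternatives of processing and samples, the adjusted p (edgeR, DESeq2 or limma-voom) of C6 ranged from 1.16e-05 to 0.129, that of C8b from 1.3e-05 to 0.154, that of C8a from 0.000499 to 0.133 and that of Hc from 0.00013 to 0.153. The log2 fold change stayed above 0 under each of the 19, at 0.88 to 1.63 for C6, 0.98 to 1.33 for C8b, 0.49 to 0.77 for C8a and 0.42 to 0.59 for Hc. Since every HFDfri library lay above every HFDfre library in these genes, leaving out a library could hardly have turned a sign. In edgeR, none of the 4 passed without HFDfre 2, HFDfre 3, HFDfre 5, HFDfri 3 or HFDfri 4, only C8b passed without HFDfre 1 or HFDfre 4, and all 4 passed without HFDfri 1 or without HFDfri 2. With the mitochondrial share as a covariate, C6 remained past the threshold (log2 fold change 1.63, edgeR adjusted p = 0.0434), while C8b (1.33, edgeR adjusted p = 0.154), C8a (0.77, edgeR adjusted p = 0.112) and Hc (0.59, edgeR adjusted p = 0.124) did not.

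Promoter sequence is shown for the 4 genes that rose and for C8g, and a relation between sequence and the changes was not tested. The sequences are the 250 bases before the RefSeq start of each gene on GRCm38.p6, written 5′ to 3′ on the strand of the gene, and of C8g's pair of RefSeq starts the upstream one is shown. Capitals mark every match, on either strand, to 4 short motifs chosen after the results were known. They are GTTAAT (a core of sites for HNF1), TTCNNNGAA (STAT), TTGCNNAA (C/EBP) and AGGTCA (nuclear receptors such as HNF4), and a match read from the other strand appears as its reverse complement, such as ATTAAC or TGACCT.
C6, chr15:4726960-4727209, plus strand: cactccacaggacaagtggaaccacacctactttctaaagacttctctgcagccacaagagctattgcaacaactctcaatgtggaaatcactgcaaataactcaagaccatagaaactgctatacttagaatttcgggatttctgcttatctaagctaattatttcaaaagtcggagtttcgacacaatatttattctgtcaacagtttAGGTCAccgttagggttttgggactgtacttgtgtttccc
C8b, chr4:104766067-104766316, plus strand: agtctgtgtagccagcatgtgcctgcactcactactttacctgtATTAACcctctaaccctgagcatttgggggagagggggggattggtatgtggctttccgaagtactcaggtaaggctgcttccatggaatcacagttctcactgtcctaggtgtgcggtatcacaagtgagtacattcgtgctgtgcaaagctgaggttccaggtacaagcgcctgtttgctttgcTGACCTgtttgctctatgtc
C8a, chr4:104876399-104876648, minus strand: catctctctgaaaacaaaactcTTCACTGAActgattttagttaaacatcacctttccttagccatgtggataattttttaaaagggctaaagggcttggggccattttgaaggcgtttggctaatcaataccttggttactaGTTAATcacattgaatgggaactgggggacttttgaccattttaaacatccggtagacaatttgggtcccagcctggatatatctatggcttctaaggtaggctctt
Hc, chr2:35061413-35061662, minus strand: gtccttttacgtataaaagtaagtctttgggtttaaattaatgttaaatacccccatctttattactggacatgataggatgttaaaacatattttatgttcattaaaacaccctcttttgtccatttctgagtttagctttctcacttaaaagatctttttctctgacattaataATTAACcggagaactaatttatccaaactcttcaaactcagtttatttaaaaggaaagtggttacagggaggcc
C8g, chr2:25501720-25501969, minus strand: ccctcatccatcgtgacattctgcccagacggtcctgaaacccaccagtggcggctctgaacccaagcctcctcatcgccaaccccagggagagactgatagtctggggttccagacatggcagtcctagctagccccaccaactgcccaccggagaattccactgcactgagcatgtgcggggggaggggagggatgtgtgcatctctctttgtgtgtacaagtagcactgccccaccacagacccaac

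In these windows, GTTAAT or its reverse complement began 206 bases before the start of C8b, 107 bases before that of C8a and 74 bases before that of Hc. AGGTCA was found 40 bases before the start of C6 and, as its reverse complement, 20 bases before that of C8b, and a STAT match, TTCACTGAA, began 228 bases before the start of C8a. None of the matches overlapped another, and the C8g windows held none. The window of C9, which is not printed, held TTGCATAA, a match to the C/EBP motif, beginning 132 bases before the start. It held no match to the other motifs. RefSeq windows of 300 bases, from 250 before to 50 after the start, were at hand for 31 of the 42 members. GTTAAT occurred in 28.1% of the members' 32 windows and in 7.1% of all 32851 windows, AGGTCA in 40.6% and 16.3%, TTGCNNAA in 28.1% and 10.8%, and TTCNNNGAA in 18.8% and 8.3%. The 32851 windows were not limited to genes expressed in the liver, so these shares do not set the members apart from other liver genes. A match is a string of letters and not a measured binding site.

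In the classical and lectin pathways, which start from antibodies and from sugars on a target, 7 of 8 genes had a log2 fold change above 0 and none passed the adjusted threshold in edgeR. At an unadjusted p under 0.05, 4 of them were higher and 1 lower, against 11.4% and 9.79% of all tested genes. C4a was at 43.5, 58.4, 74.04, 56.3 and 82.5 CPM in HFDfre and at 209, 67.3, 111 and 114 CPM in HFDfri. Its log2 fold change was 0.99 ± 0.27 (SE), at an edgeR adjusted p of 0.09, and HFDfri 1 held the highest value while HFDfri 2 fell inside the range of HFDfre. Leaving out 1 library gave 0.62 to 1.20, the lowest without HFDfri 1 and the highest without HFDfri 2, where C4a passed (edgeR adjusted p = 0.0383). Mouse C4a encodes the sex-limited protein, a close copy of complement C4, which C4b encodes 65.2 kb away, and reads of the copies could be split wrongly by the counting. C4b ranged from 775 to 838 CPM in HFDfre and from 764 to 983 CPM in HFDfri, with a log2 fold change of 0.14 ± 0.10 (SE).

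Masp1, a protease that sits on mannose-binding lectin, was at 11.2, 11.96, 6.68, 8.31 and 7.02 CPM in HFDfre and at 6.91, 24.2, 21.1 and 13.6 CPM in HFDfri, where HFDfri 1 lay within the range of HFDfre and the other 3 lay above it. The log2 fold change of Masp1 was 0.87 ± 0.31 (SE), with adjusted p-values of 0.147 in edgeR and 0.047 in DESeq2, and without HFDfri 1 it was 1.11 at an edgeR adjusted p of 0.0228. With the mitochondrial covariate it was 0.33 (edgeR adjusted p = 0.868). Its gene overlaps Rtp4 on the opposite strand. Masp2, the protease that cleaves C4 and C2, had a log2 fold change of 0.04 ± 0.08 (SE).

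C2, the protease of the C3-cleaving enzyme, was at 55.3, 58.2, 46.8, 52.3 and 53.3 CPM in HFDfre and at 60.96, 60.2, 62.7 and 65.9 CPM in HFDfri, a small separation with no overlap. Its log2 fold change was 0.23 ± 0.08 (SE) at an edgeR adjusted p of 0.152. C1ra, which encodes the protease C1r, had a log2 fold change of 0.19 ± 0.08 (SE) at an edgeR adjusted p of 0.203. Mbl2, one of the mannose-binding lectins, was the only member with every HFDfri library below HFDfre. It stood at 332, 309, 362, 339 and 361 CPM in HFDfre and at 284, 298, 264 and 301 CPM in HFDfri, a log2 fold change of -0.25 ± 0.09 (SE), which missed the threshold at an edgeR adjusted p of 0.148. The related Mbl1 was near 0 at 0.02 ± 0.15 (SE), and its sign turned without HFDfri 1, to -0.20.

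The C3 and alternative pathway genes were split, with 2 log2 fold changes above 0 and 2 below, a median of -0.13 and none past the adjusted threshold in edgeR. C3, on which the 3 pathways meet, was measured at 2298, 2422, 1985, 2213 and 2419 CPM in HFDfre and at 3064, 2803, 3119.8 and 2329.6 CPM in HFDfri, where HFDfri 4 lay inside the range of HFDfre and the other 3 libraries above it. Its log2 fold change of 0.32 ± 0.12 (SE) missed the threshold in edgeR (adjusted p = 0.157) and in DESeq2 (adjusted p = 0.0636). Cfb, factor B of the alternative pathway, had a log2 fold change of 0.15 ± 0.09 (SE).

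Cfd, which encodes the protease factor D (adipsin), was the lowest member by fold change. Its values were 27.3, 13.3, 46.1, 49.96 and 22.3 CPM in HFDfre and 8.42, 11.4, 8.50 and 28.8 CPM in HFDfri, scattered within both groups, with HFDfri 4 inside the range of HFDfre and HFDfre 2 close to the low HFDfri libraries. Cfd had a log2 fold change of -1.16 ± 0.44 (SE), at an unadjusted p of 0.0213 and an edgeR adjusted p of 0.166, and leaving out 1 library gave -1.75 to -0.93, the lowest without HFDfri 4. Fat cells are the main source of factor D in the body. Of 5 adipocyte markers, Adipoq and Plin1 were at 0 counts in all 9 libraries, Lep and Retn were under the filter, and Plin4 was at 29.1 ± 17.6 CPM in HFDfre and 14.5 ± 6.51 in HFDfri (log2 fold change -1.01 ± 0.38 (SE), edgeR adjusted p = 0.164). The sum of the list ran from 16.9 to 59.8 CPM in HFDfre and from 10.1 to 24.1 in HFDfri, nearly all of it Plin4.

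Cfp, properdin, which stabilises the alternative pathway's enzyme and is made mainly by myeloid cells, was at 8.99 to 19.1 CPM in HFDfre and at 9.20 to 12.6 CPM in HFDfri. Its log2 fold change was -0.42 ± 0.20 (SE), at an edgeR adjusted p of 0.261. The 8 macrophage markers summed to 62.6 to 137 CPM in HFDfre and to 69.1 to 94.3 CPM in HFDfri, with none past the adjusted threshold in edgeR or DESeq2, and the 6 neutrophil and monocyte markers summed to 1.19 to 3.21 and to 1.04 to 3.32 CPM, with Mpo at 0 in every library. Their part in the level of Cfp was not tested.

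The complement regulators, which hold the cascade in check, had 5 of 5 log2 fold changes above 0 and none past the adjusted threshold in edgeR. Clusterin (Clu), which keeps the membrane attack complex from inserting, was at 958, 1054, 824, 1114 and 1005 CPM in HFDfre and at 1195, 1255, 1174 and 1339 CPM in HFDfri, with no overlap. It had a log2 fold change of 0.32 ± 0.11 (SE), at an adjusted p of 0.125 in edgeR and 0.0474 in DESeq2, and of 0.13 with the mitochondrial covariate (edgeR adjusted p = 0.759). C4bp, which blocks the C4b-containing enzyme, was at 352, 377, 379, 384 and 364 CPM and at 505, 446, 424 and 422 CPM, also without overlap, and had a log2 fold change of 0.28 ± 0.09 (SE), at an adjusted p of 0.118 in edgeR and 0.0365 in DESeq2. The protease factor I (Cfi), which cuts C3b and C4b, had a log2 fold change of 0.23 ± 0.09 (SE) at an edgeR adjusted p of 0.185. Serping1, the inhibitor of C1, had a log2 fold change of 0.12 ± 0.10 (SE) and Vtn, vitronectin, one of 0.01 ± 0.14 (SE), and the sign of Vtn turned without HFDfri 1, to -0.16.

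Among the contact and intrinsic factors, F11 had the only unadjusted p under 0.05. It encodes factor XI, which activates factor IX, and was at 62.8, 71.2, 59.00, 47.6 and 51.1 CPM in HFDfre and at 75.9, 89.4, 65.9 and 69.4 CPM in HFDfri, with HFDfri 3 and HFDfri 4 inside the range of HFDfre. Its log2 fold change was 0.37 ± 0.13 (SE), at an edgeR adjusted p of 0.148. F9 and F12, which encode factors IX and XII, had log2 fold changes of 0.10 and 0.07. The kallikrein and kininogen genes lay close to 0, at -0.02 for Klkb1, -0.01 for Kng1 and 0.04 for Kng2, and the sign of each turned under at least 1 alternative. Klkb1 shares its strand with an overlapping gene, Cyp4v3, that had up to 29728 counts. F8, factor VIII, which in the liver is made by endothelial cells, was low, at 2.07 to 5.25 CPM in HFDfre and 1.69 to 3.57 CPM in HFDfri, a log2 fold change of -0.26 ± 0.30 (SE). The 6 endothelial markers summed to 62.8 to 78.0 CPM and to 54.9 to 86.9 CPM, with none past the adjusted threshold in edgeR or DESeq2.

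The extrinsic and common factors had 5 of 5 log2 fold changes above 0, none past the adjusted threshold in edgeR. F2, prothrombin, was at 1237, 1305, 1042, 1458 and 1228 CPM in HFDfre and at 1401, 1419.5, 1464 and 1332 CPM in HFDfri, and the groups overlapped. F2 had a log2 fold change of 0.16 ± 0.11 (SE), at an edgeR adjusted p of 0.419, and the fold change was -0.03 with the mitochondrial share as a covariate. F13b, the carrier subunit of the enzyme that cross-links fibrin, was at 66.5, 91.1, 66.3, 85.4 and 77.2 CPM in HFDfre and at 70.9, 140.4, 137 and 109.7 CPM in HFDfri. As with Masp1, HFDfri 1 lay within the range of HFDfre and the other 3 HFDfri libraries above it. F13b had a log2 fold change of 0.57 ± 0.18 (SE), at an adjusted p of 0.117 in edgeR and 0.0397 in DESeq2, and without HFDfri 1 it was 0.73 at an edgeR adjusted p of 0.0179. With the mitochondrial covariate F13b was at 0.15 (edgeR adjusted p = 0.871). F7, which starts the extrinsic route, had a log2 fold change of 0.34 ± 0.14 (SE) (edgeR adjusted p = 0.187), which that covariate brought to -0.0023, and its neighbour F10, 1.498 kb away, had 0.14 ± 0.10 (SE) (edgeR adjusted p = 0.451). F5, the cofactor of factor X, was at 0.08.

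The anticoagulants, which limit the clot, had a median log2 fold change of 0.00 over 4 genes, with none past the adjusted threshold in edgeR. Antithrombin (Serpinc1) and protein S (Pros1) lay near 0, at -0.01 ± 0.10 (SE) and 0.01 ± 0.08 (SE), and took either sign between alternatives. Protein C (Proc) had a log2 fold change of -0.12 ± 0.11 (SE), at an edgeR adjusted p of 0.543, and heparin cofactor (Serpind1) one of 0.25 ± 0.11 (SE), at 0.216 in edgeR (adjusted p). Proz, which encodes protein Z of the same class and was added after its values were seen, was at 135, 159, 118, 172 and 142 CPM in HFDfre and at 179, 191, 219 and 182 CPM in HFDfri. Its log2 fold change was 0.41 ± 0.12 (SE), at an adjusted p of 0.0981 in edgeR and 0.0315 in DESeq2.

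In fibrinolysis, all 3 genes were higher in HFDfri in every library, and none passed the adjusted threshold in edgeR. Of all tested genes, 4.02% were separated upwards in this way. Plasminogen (Plg), the precursor of the protease that dissolves fibrin, was at 1395, 1466, 1166, 1398 and 1358 CPM in HFDfre and at 1675, 1683, 1624 and 1535 CPM in HFDfri. Plg had a log2 fold change of 0.26 ± 0.10 (SE), at an adjusted p of 0.162 in edgeR and 0.0623 in DESeq2. The other two restrain plasmin. Serpinf2, its main inhibitor, was at 400.05, 395, 373, 366 and 427 CPM and at 571, 487, 478 and 492 CPM, a log2 fold change of 0.37 ± 0.09 (SE), at an adjusted p of 0.0715 in edgeR and 0.00493 in DESeq2. Cpb2, a carboxypeptidase that trims plasmin's docking sites from fibrin, was at 217, 210.5, 191, 208 and 218 CPM and at 324, 261, 253 and 252 CPM, a log2 fold change of 0.38 ± 0.10 (SE), at an adjusted p of 0.0766 in edgeR and 0.0113 in DESeq2.

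Compared per length, as the mean CPM per kilobase of exon over the 9 libraries, the members' levels spanned more than 3 orders of magnitude. Vitronectin (Vtn) was the highest, at 1049 CPM per kilobase, followed by Kng1 at 521, C3 at 489, Plg at 398 and Clu at 321. The lowest were F8 at 0.337, Masp1 at 1.25, Cfp at 7.22 and Pros1 at 8.61. Of the terminal complement, C8g was the highest on this scale, at 229.96, above C9 at 174, C8a at 129.98, C8b at 77.5, Hc at 69.9 and C6 at 44.2. The exon length is the union over all annotated transcripts, so a gene with rare long transcripts is placed too low.

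The libraries did not contribute evenly. HFDfri 1 held the highest value of 21 of the 42 members, against 1 to 6 for the other HFDfri and HFDfre libraries but for HFDfre 5, which held none. The lowest values lay mostly in HFDfre 3, for 15 members, and in HFDfre 4, for 11. HFDfre 4 was the lowest library for Hc, C6, C8a, C8b and C9. Without HFDfri 1 the median log2 fold change of the members was 0.12, with 29 of 42 above 0. In that fit 6 members passed the adjusted threshold in edgeR, the 4 of the terminal complement with Masp1 and F13b. Over all genes, the count at that threshold rose from 150 to 1106.

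**Figure D3:**
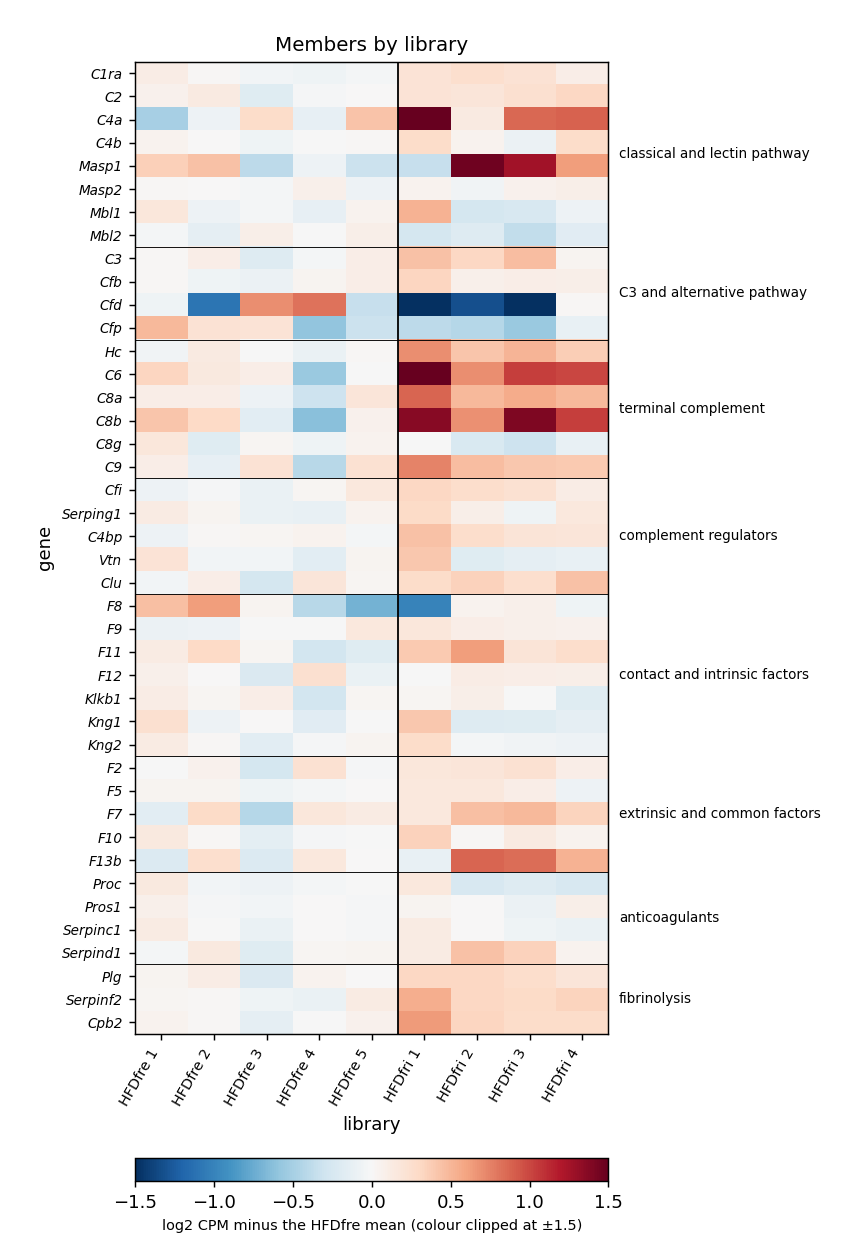
Log2 CPM of each member (rows, by role) in each library (columns) as a difference from its HFDfre mean, coloured from blue (lower) to red (higher) and clipped at ±1.5. The red block of Hc, C6, C8a, C8b and C9 spans all 4 HFDfri libraries but not C8g, and HFDfri 1 departs from the other 3 in Masp1, Vtn, F8, Kng1 and F13b.

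Variation among libraries of a group was shared by some members. Over deviations from the group means in the 9 libraries, the correlation of log2 CPM was above 0 for 547 of 861 pairs of members, with a median r of 0.18. Within the terminal complement it was 0.87 for C6 and C8a, 0.82 for C6 and C8b and 0.79 for C8a and C8b. Hc had 0.77 with C8a, 0.73 with C6 and 0.58 with C8b. C9 had 0.77 with C8a, 0.73 with C6, 0.50 with C8b and 0.45 with Hc. C8g had 0.62 with C9, 0.56 with C6, 0.43 with C8a, 0.23 with C8b and 0.02 with Hc. Such values were not particular to these pairs, as C6 had 0.89 with Vtn and 0.88 with Kng1, and C8a had 0.91 with Serpinf2. The highest r of all pairs was 0.99, for Vtn and Kng1, which both stood high in HFDfri 1, and the lowest was -0.93, for Mbl1 and F13b. Cfd ran against C3, with an r of -0.89. These values describe 9 libraries that share their scaling, and no such correlations were computed over all genes for comparison.

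Pairs of related members were compared as log2 ratios within a library, which do not depend on the scaling between libraries. The log2 ratio of C4a to C4b was -3.72 ± 0.39 in HFDfre and -2.94 ± 0.59 in HFDfri (mean ± SD), a difference of 0.78 (exact permutation p = 0.0476, adjusted over the 3 pairs 0.143). That of Mbl1 to Mbl2 differed by 0.23 (exact permutation p = 0.254, adjusted 0.381) and that of Kng1 to Kng2 by -0.06 (exact permutation p = 0.548, adjusted 0.548). With 5 against 4 libraries, the smallest p this test can give is 0.00794. Leaving out HFDfri 1 brought the difference of Mbl1 to Mbl2 to 0.05 and that of C4a to C4b to 0.55.

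Among further genes of these pathways, those of complement were mostly lower in HFDfri and those of coagulation mostly higher. Of 58 such genes with a row, 50 were tested. Of these, 25 were above 0 and 25 below, with a median log2 fold change of 0.00. The 27 tested complement genes had a median of -0.08, with 10 above 0 and 17 below. The 23 tested coagulation genes had a median of 0.19, with 15 above 0 and 8 below. At an edgeR adjusted p under 0.05, 3 of the 50 rose and 0 fell, against 0.499% and 0.556% of all tested genes. At an unadjusted p under 0.05, 10 were higher and 3 lower, against 11.4% and 9.79% of all tested genes. Fga, the alpha chain of fibrinogen, was at 1752, 2211, 1534, 1824 and 1988 CPM in HFDfre and at 4894, 2922, 3190.5 and 3678 CPM in HFDfri, with no overlap. It rose 1.97-fold, a log2 fold change of 0.98 ± 0.16 (SE), at an edgeR adjusted p of 0.0293. The beta and gamma chains, Fgb and Fgg, had log2 fold changes of 0.82 ± 0.23 (SE) and 0.89 ± 0.22 (SE), which missed the threshold at edgeR adjusted p-values of 0.0936 and 0.0698, with every HFDfri library above HFDfre. HFDfri 1 was far above the rest, at 7646 CPM of Fgb against 3213 to 3797 in the other HFDfri libraries. Without it both chains passed, Fgb at 0.43 on the log2 scale (edgeR adjusted p = 0.0459) and Fgg at 0.54 (edgeR adjusted p = 0.0300). Over all genes, 1106 passed without HFDfri 1, against 150 with it.

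Cpn2, a subunit of the carboxypeptidase that inactivates complement peptides and kinins, rose from 188 ± 14.1 to 259 ± 2.57 CPM (log2 fold change 0.46 ± 0.08 (SE), edgeR adjusted p = 0.0354). Serpine2, an inhibitor of thrombin, rose from 7.63 ± 1.93 to 16.2 ± 3.30 CPM (log2 fold change 1.09 ± 0.20 (SE), edgeR adjusted p = 0.0354). C1rb, a close copy of C1ra whose reads may be shared with it, had a log2 fold change of 0.56 ± 0.13 (SE) at an edgeR adjusted p of 0.0594. C1q, the antibody sensor of the classical pathway, is made by macrophages, and its chains C1qa, C1qb and C1qc were at -0.33, -0.24 and -0.31, with edgeR adjusted p-values of 0.479, 0.593 and 0.42, beside the macrophage marker sums given above. With the mitochondrial share as a covariate, none of the 50 passed the adjusted threshold.

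Of 15 transcription factors that act on liver genes, 1 passed the adjusted threshold in edgeR, against 1.05% of all tested genes. DESeq2 called 4 of them higher and 2 lower, against 3.43% of all tested genes called higher and 954 genes called in all. Stat3, which carries the signal of interleukin-6 to acute-phase genes, was at 39.6, 45.6, 37.3, 38.3 and 47.1 CPM in HFDfre and at 100.3, 64.7, 56.4 and 90.6 CPM in HFDfri, and rose 1.88-fold (log2 fold change 0.91 ± 0.16 (SE), edgeR adjusted p = 0.0322). The calls of Stat3, Fga, Serpine2 and Cpn2 changed with the libraries, as did the count over all genes, which went from 150 to 6 without HFDfre 3 or HFDfre 5. Of the 19 alternatives, Fga and Serpine2 passed in 11 each, Stat3 in 10 and Cpn2 in 8. Each of the 4 calls was lost without HFDfre 1, HFDfre 3, HFDfre 4, HFDfre 5 or HFDfri 4, and their adjusted p reached 0.141 for Fga, 0.230 for Serpine2, 0.135 for Stat3 and 0.280 for Cpn2, while the log2 fold changes without 1 library stayed at 0.80 to 1.07 for Fga, 0.97 to 1.19 for Serpine2, 0.75 to 1.04 for Stat3 and 0.41 to 0.48 for Cpn2. Stat3 overlaps Stat5a on the opposite strand. Hnf4a, a nuclear receptor that many liver genes depend on, was at 302, 321, 312, 356 and 343 CPM in HFDfre and at 489, 402, 509 and 399.5 CPM in HFDfri, with a log2 fold change of 0.46 ± 0.10 (SE) that missed the threshold in edgeR (adjusted p = 0.0566) and passed it in DESeq2 (adjusted p = 0.00243). Foxa3 had a log2 fold change of 0.60, Foxa2 of -0.64, Nr2f2 of -0.41 and Cebpb, another acute-phase regulator, of -0.60, with edgeR adjusted p-values of 0.0701, 0.0853, 0.0806 and 0.162 and DESeq2 adjusted p-values of 0.00861, 0.0132, 0.0194 and 0.0767. Ppara, a nuclear receptor for fatty acids, had a log2 fold change of 0.82 at adjusted p-values of 0.108 in edgeR and 0.0187 in DESeq2. The mRNA of a factor does not measure its activity, and a relation between these factors and the members was not tested.

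**Figure D4:**
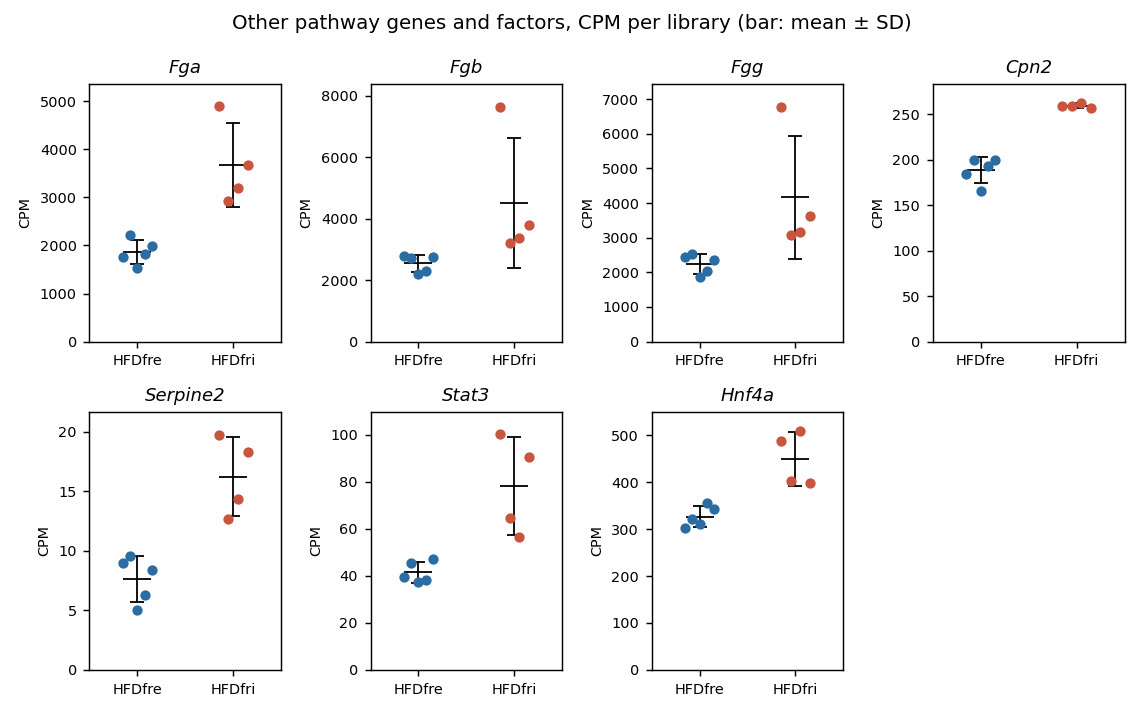
CPM (y axis, from 0) of 5 further complement and coagulation genes and of Stat3 and Hnf4a in each HFDfre (blue, n = 5) and HFDfri (red, n = 4) library, with bars for mean ± SD. The groups do not overlap in any of the 7 panels, and in Fgb and Fgg a single HFDfri library, HFDfri 1, stands far above the others.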

How the data were processed

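RNA-seq was analysed in 9 mouse liver libraries, 5 of HFDfre and 4 of HFDfri, grouped by the labels, and the code in a sample's title gave its column. The authors deposited 1 table of whole numbers per gene, taken here as estimated counts and not scaled between libraries. The submitters' processing notes name HISAT2, StringTie and mm10. The study's methods name HISAT2, paired-end Illumina reads and TRIzol, and the kit is NEBNext Ultra in the labels and KAPA RNA HyperPrep in the methods. Annotation and strand use are not given in the sources used here. Among low values, multiples of 4 are overrepresented (3990 entries equal 4, 2172 equal 3 and 1840 equal 5), so counting error is treated only approximately. Symbols came from the table, and 96.3% of its identifiers are in GENCODE M21 (GRCm38), which gave coordinates. Protz and Cebpd had no row by symbol, and 3 listed genes were matched by identifier.

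The estimated counts were rounded, filtered with filterByExpr and compared with edgeR 4.0.16 (R 4.3.3) by its quasi-likelihood test, using TMM and no covariate, as HFDfri minus HFDfre. Benjamini-Hochberg adjustment ran over all 14220 tested genes. The standard error is the log2 fold change divided by the square root of F. Log2 CPM had a prior count of 2, ratios one of 0.5. Alternatives were DESeq2 1.42.0 (the study's tool), limma-voom (limma 3.58.1), DESeq2 size factors, library totals, no filter, at least 10 counts in every library, robust dispersion, a replicate block, the ribosomal locus Gm26924 or the mitochondrial share as a covariate, and leaving out each library. Ratios were compared by exact permutation tests. On simulated data with the 14220 genes, edgeR recovered 59 of 100 genes changed by log2 1 and 85 of 100 changed by log2 2, with 6 false calls. The simulation drew each gene independently, with no shift of the mitochondrial share and no outlying library. Its figures therefore do not cover the dependence on single libraries described here.

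The members and lists were chosen with earlier results of these data known. Full values are given for members past the adjusted threshold and for Hc, C3, Cfd, F2 and Plg, and for other members as added detail. Further pathway genes are the 12 with the smallest p under 0.05 and C1qa, C1qb, C1qc, Fga, Fgb, Fgg, Hnf4a, Cebpb and Stat3, of which 1 is not reported here. C7, Ppara and the marker genes named (Plin4, Ttr, Cps1, Ppbp, Alas2) were named after their values were seen.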

Additional observations from a re-analysis of the deposited data

Results flagged for a closer look

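In each group, the highest and the lowest library of every member and ratio were checked for a gap to the next library that took up most of the group's range. Of 90 such sets, 9 were set apart, where about 1 in 20, or 4.5, would be expected by chance if the sets were independent. In 8 of the 9 the library was HFDfri 1. The sets are not independent, since flagged members varied together, at a within-group r of 0.99 for Vtn and Kng1 and 0.97 for Kng2 and Cpb2. The 9 cases are therefore not separate events, and the comparison with 4.5 decides nothing.

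HFDfri 1 stood above the other 3 HFDfri libraries in 7 genes. Its gap to the nearest library, as a share of the range of log2 CPM in HFDfri, was 0.898 for Cfb, 0.867 for Vtn, 0.906 for Kng1, 0.858 for Kng2, 0.867 for Proc, 0.840 for Serpinf2 and 0.863 for Cpb2. Vtn had a log2 CPM of 11.46 in HFDfri 1 and of 10.86 to 10.94 in the other 3, and Kng1 of 11.13 and of 10.54 to 10.59. In F8 the same library was the low one, at a log2 CPM of 0.78 against 1.71 to 1.85 and a gap of 0.870 of the range. In HFDfre, Klkb1 was low in HFDfre 4, at a log2 CPM of 6.25 against 6.55 to 6.62, a gap of 0.809 of the range. The 4 terminal complement genes that rose are not among the 9, and leaving out HFDfri 1 left each of them past the threshold in edgeR.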

How the results depend on the processing

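The directions of the 4 genes that rose held under all 19 alternatives, but their calls sit near the threshold. As the groups do not overlap in these genes, leaving out a library could hardly have turned a direction. DESeq2 called 954 genes in all, 11 members and 9 of the other pathway genes. Library totals without TMM gave 76 genes, and no filter gave 72 genes and 2 members. The ribosomal locus covariate gave 93 genes and 1 member. The mitochondrial covariate gave 5 genes, 1 member and 0 other pathway genes, with 10 members at an unadjusted p under 0.05. With a replicate block, 0 genes, 0 members and 0 other pathway genes passed in edgeR, and 18 members had an unadjusted p under 0.05. The share of all genes at that p was not counted for this fit or the mitochondrial one. Deviations of same-numbered libraries correlated at -0.14 to 0.08, and so few libraries cannot settle whether the numbers pair them. Without 1 library at a time, the count ranged from 6 genes (without HFDfre 3 or HFDfre 5) to 1106 (without HFDfri 1), from 0 to 6 members, and from 0 to 8 other pathway genes. The members' median log2 fold change was 0.12 to 0.21 over the 19 alternatives. The causes were not tested.

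Some log2 fold changes changed sign. The mitochondrial covariate turned F7 from 0.34 to -0.0023, and C1qa, C1qb and C1qc from -0.33, -0.24 and -0.31 to 0.047, 0.094 and 0.10. It gave -0.027 for F2, -0.13 for F12, 0.15 for Klkb1, 0.24 for Kng1 and 0.015 for Serpinc1. The ribosomal covariate gave -0.012 for Mbl1, 0.00062 for F8 and 0.0052 for Serpinc1. Library totals gave 0.043 for Klkb1, 0.040 for Kng1 and 0.050 for Serpinc1, limma-voom -0.014 for Mbl1 and -0.0042 for Vtn, and the replicate block -0.0013 for Mbl1. Leaving out libraries gave -0.20 to 0.10 for Mbl1, -0.16 to 0.072 for Vtn, -0.083 to 0.032 for Klkb1, -0.19 to 0.048 for Kng1, -0.064 to 0.072 for Kng2, -0.014 to 0.044 for Pros1 and -0.066 to 0.024 for Serpinc1. None of these genes passed under any alternative run. F8 had few counts, which limits its precision.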
